A study of Mus musculus with 12 samples.

Results

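The effect of losing Otub1 on activated CD8 T cells was measured by RNA sequencing of mouse spleen cells that had been cultured for 24 h on plate-bound anti-CD3 with anti-CD28, antibodies that stand in for antigen and for costimulation, at 1 µg/ml each. The comparison took the 3 libraries whose source label reads treated knockout and the 3 whose label reads treated wild type, 6 of the 12 in the series. The other 6 are untreated libraries of the same genotypes, 3 each, called fresh below. Wild type stands for wild type-OT-I mice and knockout for OTUB1-CD4Cre-OT-I mice (written OTUB1-DKO in the genotype tag), both on the C57BL/6 background and 6 to 8 weeks old (8 weeks in the extraction text). All groups carry OT-I, a transgenic T cell receptor against an ovalbumin peptide. CD4-Cre is active in developing T cells that go on to both the CD4 and the CD8 lineage, so Otub1 was removed before the cells matured and not at the time of stimulation. The labels do not say whether the 3 libraries of a group came from separate animals, and p-values therefore measure the spread between these samples. They also conflict on the cells: the design text names naive splenic CD8 T cells, a cell type tag names splenic DCs, and the extraction text describes fresh cells throughout.

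OTUB1 is a deubiquitinase, an enzyme that removes ubiquitin chains from proteins, and it also binds ubiquitin-conjugating (E2) enzymes and holds them inactive. When a naive CD8 T cell is stimulated through its receptor it leaves quiescence, takes up glucose and turns to glycolysis, makes lipids and nucleotides, divides, and acquires the granzymes and cytokines of an effector cell. The kinase AKT carries part of this program: it drives glucose use, and it keeps FOXO transcription factors, which maintain naive cells and their homing receptors, out of the nucleus. HIF-1, a transcription factor of low oxygen that T cell receptor and cytokine signals also induce, turns on glycolytic enzymes and a further set of hypoxia genes.

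Gene counts ranged from 19354831 to 25920035 per stimulated library. Markers of CD8 T cells were present in all 6, with summed levels of 2288 to 2462 CPM (counts scaled to a library of 1000000 gene counts) in wild type and 2062 to 2220 CPM in knockout over 7 genes. Of 16 dendritic cell markers Clec9a, Cd209a, Siglech and Clec10a were at most 0.258, 0.0517, 0.155 and 0.0852 CPM. Others were present: Xcr1 ranged from 0.853 to 1.53 CPM in wild type and from 1.4 to 2.16 CPM in knockout (edgeR adjusted p = 0.106), Flt3 from 1.23 to 2.44 CPM over the 6 libraries, H2-Aa from 7.28 to 13.5 CPM, Cst3 from 31.8 to 38.3 CPM and Cd74 from 42.7 to 64.4 CPM. Most of the summed level (759.8 to 922.3 CPM in wild type, 949 to 1150 CPM in knockout) came from Ccr7, which T cells also express. Ccr7 and Zbtb46, a transcription factor of dendritic cells, were the 2 called members of that list. Zbtb46 was at 5.21, 4.09 and 4.53 CPM in wild type and 6.7, 7.79 and 8.91 CPM in knockout (log2 fold change 0.76, SE 0.18, edgeR adjusted p = 0.0169) and was no longer called after removal of knockout replicate 3 or wild-type replicate 2 or 3 (edgeR adjusted p = 0.0716, 0.073 and 0.0683). The part of these genes in the results below was not tested. Of the 6 markers of CD4 and regulatory T cells, Cd4 was at most 1.1 CPM and Foxp3 at most 3.66 CPM, and the sum (960.5 to 1025 and 1160 to 1363 CPM) was mostly Il2ra, which activated CD8 T cells also express. Lyz2, Csf1r, Cd14 and the other myeloid markers were below 1 CPM in every library apart from Ly6c2, which CD8 T cells express. Ly6c2 was at 65.5, 58.9 and 73 CPM in wild type and 36.6, 39.1 and 42.8 CPM in knockout (log2 fold change −0.74, SE 0.20, edgeR adjusted p = 0.0299), a call lost after removal of knockout replicate 1 or 2 or wild-type replicate 1 or 3 (highest edgeR adjusted p 0.12). In bulk samples, fewer cells of a type and less RNA per cell cannot be told apart. Calls that edgeR did not make after 1 library was removed were those of Ccr7 (knockout replicate 2 or 3 or wild-type replicate 1 or 3, highest adjusted p = 0.165) and Il2ra (knockout replicate 2 or wild-type replicate 2 or 3, highest adjusted p = 0.0926).

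Knockout replicate 3 had Y-linked reads (Ddx3y 124 CPM) and little Xist (7.03 CPM), whereas the other 5 stimulated libraries had the opposite pattern, the pattern of 1 male and 5 female sources. On a principal component analysis of the 6 libraries, the first component held 36.8% of the variance and separated the genotypes, with scores of 14.3 to 19.8 in wild type and −20.8 to −9.05 in knockout. The second component held 22.3% and set knockout replicate 2 (20.8) apart from knockout replicate 3 (−23.5). Removing wild-type replicate 3 lowered the number of genes that passed the test more than removing any other stimulated library.

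Otub1 itself (chromosome 19, 7198206 to 7206284, GRCm38) was at 85.7, 100.1 and 96.1 CPM in the wild-type libraries and 16.2, 13.8 and 14.5 CPM in the knockout libraries (log2 fold change −2.66, SE 0.14, edgeR adjusted p = 1.35e-07). No knockout library came near a wild-type library. The counts do not show which exons the residual reads came from.

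**Figure D1:**
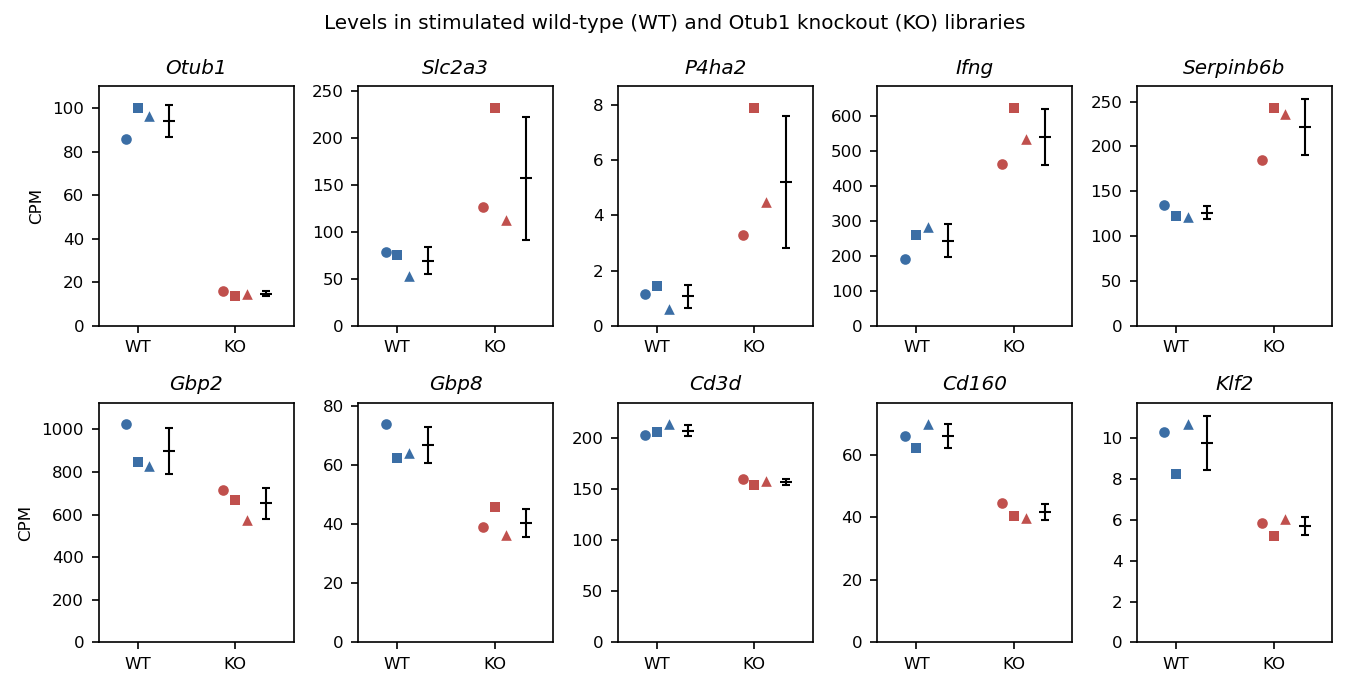
Levels in CPM (y axis, starting at 0) of 10 genes in the 3 wild-type (blue) and 3 knockout (red) stimulated libraries; symbols mark replicate 1 (circle), 2 (square) and 3 (triangle), and the bar beside each group is the mean ± SD. The groups do not overlap for any of the 10 genes; knockout replicate 2 is the highest library for Slc2a3 (232 CPM) and P4ha2 (7.9 CPM).

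Across 12759 genes tested, 648 were higher in the knockout (5.08%) and 539 were lower (4.22%) at an edgeR adjusted p under 0.05. These shares are the background for the counts within gene lists below. Most of these differences were small. Of the 1187 called genes 891 differed by less than 1.5-fold, and 77 were at least 2-fold higher and 20 at least 2-fold lower. The median log2 fold change was 0.44 among the higher genes, −0.34 among the lower genes and −0.00 over all genes tested. All 3 knockout libraries lay above all 3 wild-type libraries for 640 of the 648 higher genes, and below them for 532 of the 539 lower genes, where 14.3% of all genes tested lay entirely above and 13.1% entirely below. The calls depended on single libraries: without wild-type replicate 3 there were 258 higher and 256 lower genes, without wild-type replicate 2 there were 373 and 385, and without knockout replicate 3, the library with Y-linked reads, 467 and 376.

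**Figure D2:**
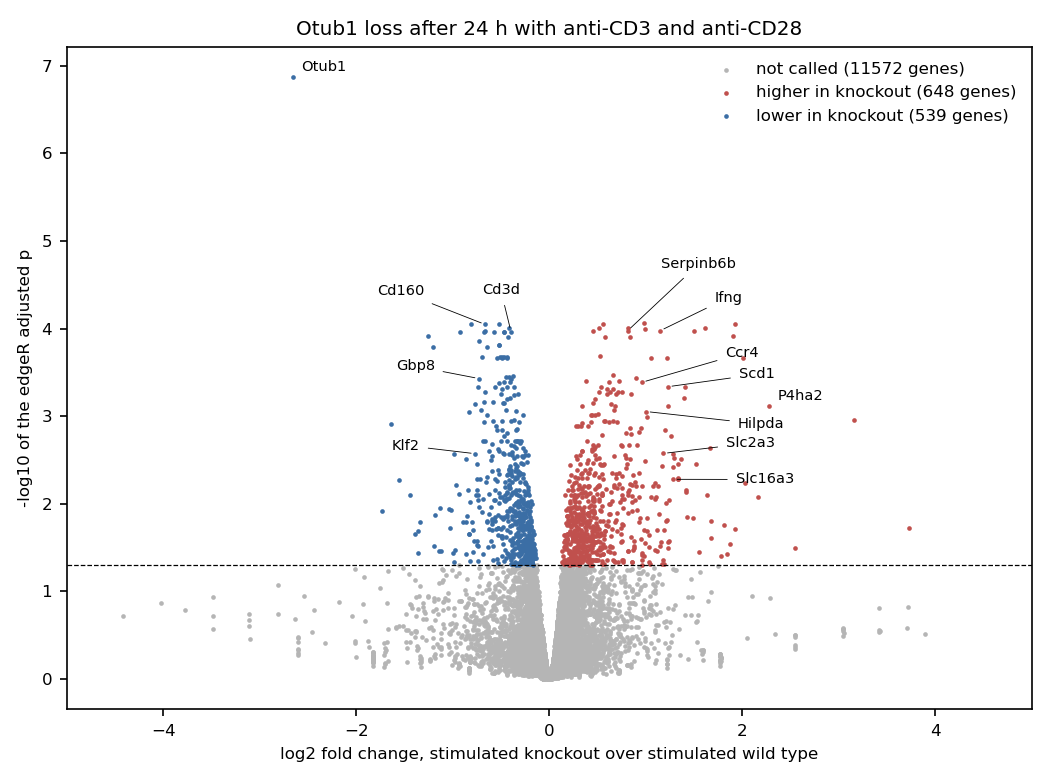
Log2 fold change of knockout over wild type in stimulated cells (x axis) against −log10 of the edgeR adjusted p (y axis) for 12759 genes; red points were called higher (648), blue lower (539), grey not called, the dashed line marks an adjusted p of 0.05, and 4 genes lie beyond the x axis. Otub1 stands alone at the top, and the labelled genes are described in the text.

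Hypoxia genes outside glycolysis were the list with the largest number of higher genes. Of 30 HIF-1 targets tested 17 rose and none fell, 56.7% against 5.08% of all genes, and the estimate was positive for all 30 (median log2 fold change 0.45). P4ha2, a prolyl hydroxylase of collagen synthesis, was at 1.15, 1.45 and 0.624 CPM in the wild-type libraries and 3.29, 7.9 and 4.47 CPM in the knockout libraries. The groups did not overlap (log2 fold change 2.28, SE 0.33, edgeR adjusted p = 0.000775). Hilpda, a protein of lipid droplets, was at 21.6, 23.4 and 17.7 CPM in wild type and 34.6, 55.1 and 36 CPM in knockout, again with every knockout library above every wild-type library (log2 fold change 1.00, SE 0.15, edgeR adjusted p = 0.000885). Ankrd37, a small ankyrin-repeat protein, rose by 0.75 on the log2 scale and Anxa2, an annexin, by 1.16 (edgeR adjusted p = 0.00218 and 0.0037). Adm, which encodes the peptide hormone adrenomedullin, was close to the detection limit in wild type, at 0.251, 0.289 and 0.291 CPM in wild type and 1.2, 0.837 and 1.38 CPM in knockout (log2 fold change 2.03, SE 0.40, edgeR adjusted p = 0.00586).

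The oxygen sensors of the pathway were among the members that rose. Egln1, the prolyl hydroxylase that marks HIF-1 alpha for destruction, was at 82.4, 90.1 and 74.1 CPM in wild type and 99.96, 137 and 104 CPM in knockout. Its groups did not overlap (log2 fold change 0.47, SE 0.10, edgeR adjusted p = 0.00878), but it was no longer called after removal of wild-type replicate 3 (edgeR adjusted p = 0.0527). The related gene Egln3 differed more and in the same direction (log2 fold change 1.64). Hif1a itself was at 375, 385 and 359 CPM in wild type and 409.8, 572 and 382 CPM in knockout and was not called (edgeR adjusted p = 0.105), with knockout replicate 3 inside the wild-type range. Vegfa, a growth factor gene that HIF-1 induces in many tissues, was not called either (log2 fold change 0.25, edgeR adjusted p = 0.153). Ak4 (an adenylate kinase of mitochondria), P4ha1 and the transcription factor gene Bhlhe40 passed the test with log2 fold changes of 1.34, 0.50 and 0.70.

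Glycolysis moved with these genes. Of 22 genes tested from glucose uptake to lactate export 15 rose and none fell (68.2%; median log2 fold change 0.47), and 15 had all knockout libraries above all wild-type libraries. At the point of entry, the glucose transporter Slc2a1 was at 135, 164 and 123 CPM in wild type and 202, 268 and 217 CPM in knockout (log2 fold change 0.70, SE 0.11, edgeR adjusted p = 0.00117). The second transporter, Slc2a3, was at 79.2, 75.9 and 52.8 CPM in wild type and 126, 232 and 113 CPM in knockout, so that even its lowest knockout library exceeded its highest wild-type library (log2 fold change 1.18, SE 0.20, edgeR adjusted p = 0.00266). Further down, Tpi1, the triose phosphate isomerase, was at 593, 618 and 399 CPM in wild type and 781, 1152 and 736 CPM in knockout (log2 fold change 0.73, SE 0.16, edgeR adjusted p = 0.0095). Aldolase A (Aldoa) rose by 0.48 and hexokinase 1 (Hk1) by 0.33 on the log2 scale (edgeR adjusted p = 0.0031 and 0.00514). At the exit, Slc16a3, which carries lactate out of the cell, was at 50.2, 66 and 26.8 CPM in wild type and 91.5, 161 and 94.6 CPM in knockout. That was the largest log2 fold change of the list (1.28, SE 0.25, edgeR adjusted p = 0.00526), and the groups did not overlap.

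Pgk1, phosphoglycerate kinase, was at 1400, 1462 and 1154 CPM in wild type and 1743, 2426 and 1630 CPM in knockout, and Ldha, lactate dehydrogenase A, at 1862, 1980 and 1552 CPM in wild type and 2304, 2939 and 2208 CPM in knockout. Both had knockout libraries entirely above wild type, with log2 fold changes of 0.53 and 0.47 (edgeR adjusted p = 0.0117 and 0.00921). Removal of wild-type replicate 3 ended the calls of Pgk1, Ldha, the pyruvate kinase gene Pkm and the phosphofructokinase gene Pfkp (edgeR adjusted p = 0.0664, 0.053, 0.0647 and 0.0843). Pgk1, Pkm and Pfkp also lost the call when only the 6 stimulated libraries were fitted (edgeR adjusted p = 0.0575, 0.059 and 0.0641). Eno1, a main enzyme of the pathway, had too few counts to be tested, so that its level is not reported.

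The extremes of both lists fell to the same pair of libraries. Knockout replicate 2 was the highest of the 6 libraries for 24 of 30 HIF-1 targets and 19 of 22 glycolysis genes, and wild-type replicate 3 was the lowest for 21 and 18. A fit of only the 6 stimulated libraries called 11 HIF-1 targets and 11 glycolysis genes. Without wild-type replicate 3, 10 HIF-1 targets and 10 glycolysis genes were called. Without knockout replicate 2 the numbers were 12 and 15, and with all 3 libraries that hold Y-linked reads removed 20 and 15.

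**Figure D3:**
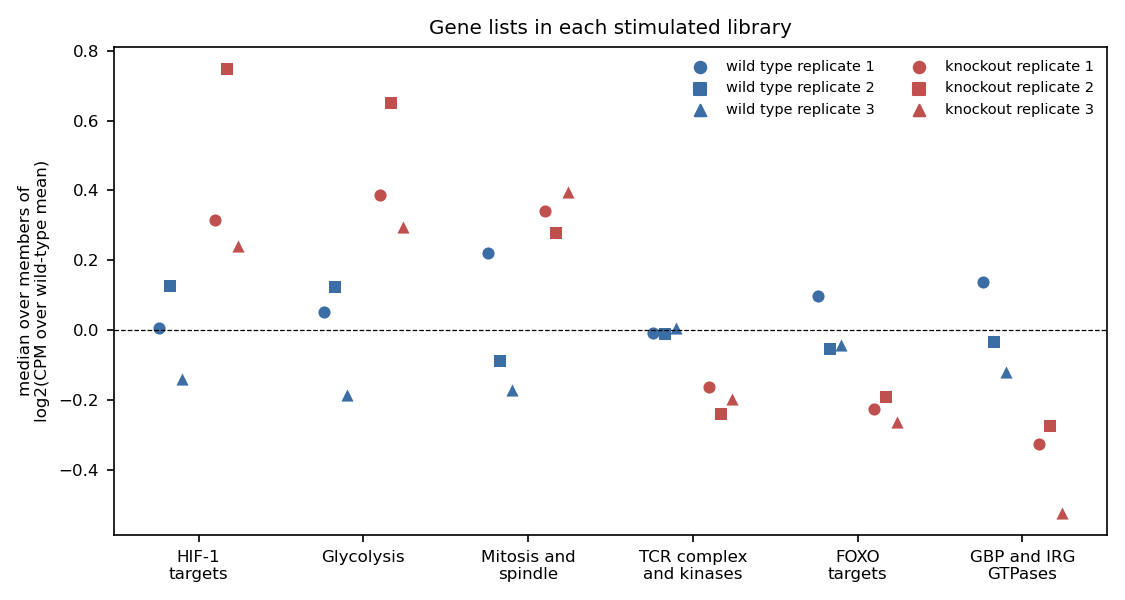
Each point is the median, over the tested members of a gene list (x axis), of log2 of the CPM in 1 stimulated library over the wild-type mean (y axis; 0.01 CPM added to both); blue is wild type, red knockout, and symbols mark the replicate. For HIF-1 targets knockout replicate 2 lies at 0.75 and wild-type replicate 3 at −0.14, while T cell receptor genes lie between −0.24 and −0.16 in the knockout and between −0.01 and 0.01 in wild type.

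The sequence upstream of these genes was examined because HIF-1 recognises a short core motif in DNA. The motif was searched as ACGTG or GCGTG on both strands, in the 250 bases before each gene's start (RefSeq promoter windows, GRCm38.p6, the build of mm10). Of 13 called HIF-1 targets with a window all 13 held a match, and of 14 called glycolysis genes 12 did (85.7%), where 60.9% of 9492 tested genes with a window held one. Over all tested members with a window, called or not, 24 of 25 HIF-1 targets (96%) and 18 of 21 glycolysis genes (85.7%) held a match. The match thus went with membership of the lists and did not set called members apart. The core is short and common, so a match is a description of the letters and not evidence of binding. Stretches around the matches are shown for 4 genes with several of them, in lower case with the core in capitals, read 5′ to 3′ on the strand of the gene. They are P4ha2 (chr11:54100792-54100884, plus strand), Bnip3, a mitochondrial protein of hypoxic cells (chr7:138909512-138909648, minus strand), Ldha (chr7:46845634-46845799, plus strand) and Slc16a3 (chr11:120949015-120949066, plus strand).
P4ha2: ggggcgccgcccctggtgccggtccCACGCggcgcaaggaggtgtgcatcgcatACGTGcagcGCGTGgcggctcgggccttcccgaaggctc
Bnip3: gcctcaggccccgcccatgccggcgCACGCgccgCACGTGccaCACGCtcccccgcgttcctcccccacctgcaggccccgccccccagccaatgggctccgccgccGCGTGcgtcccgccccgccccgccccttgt
Ldha: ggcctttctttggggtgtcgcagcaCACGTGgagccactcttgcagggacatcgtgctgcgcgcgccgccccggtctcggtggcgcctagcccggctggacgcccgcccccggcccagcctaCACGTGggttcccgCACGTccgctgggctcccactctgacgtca
Slc16a3: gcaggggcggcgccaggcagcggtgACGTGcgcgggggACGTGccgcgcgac

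Other metabolic lists rose in part or not at all. Of 14 fatty acid synthesis genes 4 rose (28.6%; median 0.23): Scd1, Scd2, Acly and Fads2. Scd1, a desaturase that makes monounsaturated fatty acids, was at 8.97, 7.8 and 5.82 CPM in wild type and 17.8, 16.3 and 18.5 CPM in knockout, with the groups well apart (log2 fold change 1.23, SE 0.17, edgeR adjusted p = 0.000461). Its paralogue Scd2 was at 424, 376 and 256 CPM in wild type and 584, 610.5 and 583 CPM in knockout (log2 fold change 0.75, SE 0.15, edgeR adjusted p = 0.00652). Acly, which makes cytosolic acetyl-CoA from citrate, rose by 0.22 (edgeR adjusted p = 0.00361). Without wild-type replicate 1 there were 8 higher genes in the list. In cholesterol synthesis 8 of 24 rose (33.3%; median 0.18), 5 without knockout replicate 1 or wild-type replicate 2 and 3 without wild-type replicate 3. Glycogen metabolism had 3 higher genes of 21 (14.3%), and besides Ppp1r3b, which targets a phosphatase to glycogen, these were Pgm2 and Pygl. Pgm2, a phosphoglucomutase, rose by 0.58 (edgeR adjusted p = 0.00682), and Pygl, glycogen phosphorylase, overlapped between the groups at 0.251, 0.433 and 0.333 CPM in wild type and 1.12, 2.25 and 0.43 CPM in knockout; it was no longer called after removal of any 1 of 5 libraries (highest edgeR adjusted p 0.147). No gene was called among 24 of the TCA cycle, 35 of the respiratory chain and ATP synthase, and 28 of ribosome biogenesis, with median log2 fold changes of 0.06, 0.02 and 0.02. Absence of a call does not show that these levels were equal. The edgeR call was lost after removal of 1 library for Fads2 (knockout replicate 1 or wild-type replicate 2 or 3, highest adjusted p = 0.102).

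Genes of cell division were higher, with small differences that hung on single libraries. Of 26 mitosis and spindle genes 14 rose (53.8%) and the estimate was positive for all 26 (median 0.33). Aurkb, a kinase of chromosome segregation, was at 69.8, 61.4 and 55.4 CPM in wild type and 87.1, 76.8 and 88.3 CPM in knockout (log2 fold change 0.44, SE 0.10, edgeR adjusted p = 0.0105). The groups did not overlap, and it was no longer called after removal of wild-type replicate 3 (edgeR adjusted p = 0.0624). The number of called mitosis genes was 22 without wild-type replicate 1, which was the highest wild-type library of the list, and 5, 6, 3 and 1 without knockout replicate 1, knockout replicate 3, wild-type replicate 2 and wild-type replicate 3. With all libraries that hold Y-linked reads removed it was 9. Among 28 genes of DNA replication 8 rose (28.6%; median 0.18), 5, 2, 2 and 1 without the same 4 libraries in the order knockout 3, knockout 1, wild type 2 and wild type 3. Nucleotide synthesis had 8 of 22 higher (36.4%), and 4 without knockout replicate 1, wild-type replicate 2 or wild-type replicate 3. Among 22 heat shock and chaperonin genes 6 rose (27.3%), Hsp90aa1 and 5 subunits of the chaperonin that folds actin and tubulin. Hsp90aa1 was at 1846, 1725 and 1745 CPM in wild type and 2062, 2252 and 2128 CPM in knockout (log2 fold change 0.28, SE 0.06, edgeR adjusted p = 0.00845). That count was 1 without knockout replicate 3, wild-type replicate 2 or wild-type replicate 3, and 3 without knockout replicate 2.

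**Figure D4:**
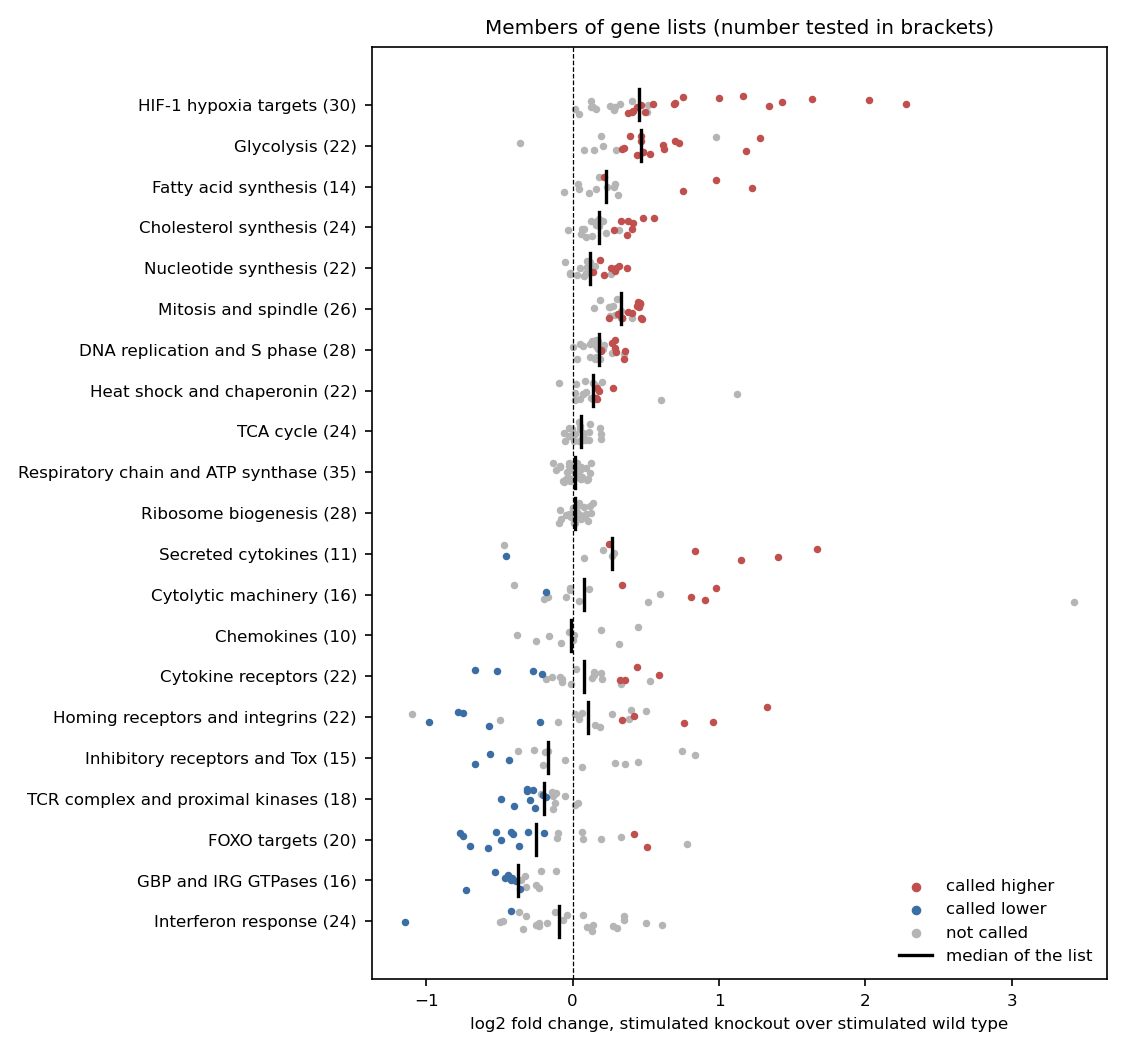
Log2 fold change of knockout over wild type in stimulated cells (x axis) for each tested member of 21 gene lists (y axis, number tested in brackets); red members were called higher, blue lower, grey not called, and the black bar is the median of the list. The bars of HIF-1 targets (0.45) and glycolysis (0.47) lie to the right of 0, those of the guanylate-binding and immunity-related GTPases (−0.37) and FOXO targets (−0.25) to the left.

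Effector products were next. Of 17 cytokine genes 11 had enough counts to be tested, and 5 of these rose and 1 fell (45.5% and 9.09%). Besides Ifng, Csf2 and Il3, the higher ones were Lif and Lta. Lif, leukemia inhibitory factor, was at 117, 136 and 109 CPM in wild type and 194, 269 and 185 CPM in knockout, with no overlap (log2 fold change 0.84, SE 0.13, edgeR adjusted p = 0.00136). Lta, lymphotoxin alpha, was at 264, 301 and 287 CPM in wild type and 316, 365 and 332 CPM in knockout. Its difference was small (log2 fold change 0.25, SE 0.06, edgeR adjusted p = 0.022) and was no longer called after removal of wild-type replicate 1 or 3 or knockout replicate 2 (edgeR adjusted p = 0.0677, 0.0683 and 0.0745). Ltb, its membrane partner lymphotoxin beta, went the other way, at 176, 183 and 154 CPM in wild type and 127, 138 and 108 CPM in knockout (log2 fold change −0.45, SE 0.09, edgeR adjusted p = 0.00562). Il2 was at 7.46, 19.6 and 23.4 CPM in wild type and 13, 23.9 and 25.1 CPM in knockout and Tnf at 70.5, 85.3 and 100 CPM in wild type and 89.4, 101 and 106 CPM in knockout, and neither was called (edgeR adjusted p = 0.63 and 0.434). The groups overlapped for both. No gene of 10 chemokines was called.

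Within the cytolytic machinery 4 of 16 genes rose (25%) and 1 fell (6.25%). Among the higher genes, 2 encode inhibitors that shield a killer cell from its own proteases, Serpinb9 and Serpinb6b. Serpinb6b was at 134, 122 and 122 CPM in wild type and 185, 243 and 236 CPM in knockout, with every knockout library above the highest wild-type library (log2 fold change 0.81, SE 0.09, edgeR adjusted p = 0.000106). Rab27a, the GTPase that docks cytotoxic granules at the membrane, was at 108, 108 and 108 CPM in wild type and 129, 147 and 133 CPM in knockout (log2 fold change 0.34, SE 0.06, edgeR adjusted p = 0.0025). The remaining higher gene was the granzyme gene Gzmb. Nkg7, a membrane protein of the granules, was lower at 194, 192 and 206 CPM in wild type and 164, 171 and 187 CPM in knockout (log2 fold change −0.18, SE 0.05, edgeR adjusted p = 0.036) and was no longer called after removal of knockout replicate 1 or 2 or wild-type replicate 2 or 3 (highest edgeR adjusted p 0.183). Without wild-type replicate 1, 2 members of the list were lower.

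Among 13 transcription factors of effector and memory cells 3 rose (23.1%), Runx3, Bhlhe40 and Prdm1. Runx3, which directs the cytotoxic program of the CD8 lineage, was at 99.7, 99.7 and 91.7 CPM in wild type and 124, 124 and 116 CPM in knockout (log2 fold change 0.32, SE 0.06, edgeR adjusted p = 0.00275). Prdm1, which encodes Blimp-1, was at low levels, 1.7, 1.98 and 1.33 CPM in wild type and 2.67, 4.34 and 3.44 CPM in knockout. All knockout libraries were above wild type (log2 fold change 1.05, SE 0.22, edgeR adjusted p = 0.00845), and the call was lost after removal of wild-type replicate 3 (edgeR adjusted p = 0.0537). Eomes was at 189, 164 and 158 CPM in wild type and 152, 172 and 176 CPM in knockout, with overlapping groups (edgeR adjusted p = 0.893). Tbx21, which encodes the effector factor T-bet, also overlapped, at 89.8, 94.7 and 84.5 CPM in wild type and 107, 93 and 103 CPM in knockout (edgeR adjusted p = 0.376). Of 15 AP-1, BATF and IRF genes, Batf3 and Junb rose (13.3%) and Bach2, Irf2 and Maf fell (20%). Batf3 was at 15.2, 19.9 and 14.8 CPM in wild type and 27, 29.8 and 39.9 CPM in knockout (log2 fold change 0.95, SE 0.15, edgeR adjusted p = 0.00137). Junb, a component of AP-1, was at 115, 147 and 128 CPM in wild type and 167, 178 and 197 CPM in knockout (log2 fold change 0.47, SE 0.09, edgeR adjusted p = 0.00451). Bach2, a repressor that restrains effector differentiation, was at 223, 194 and 219.5 CPM in wild type and 182, 155 and 169 CPM in knockout (log2 fold change −0.33, SE 0.07, edgeR adjusted p = 0.0109; 0.0563 with wild-type replicate 3 removed). Maf was below 1 CPM in every library. Of the 3 lower factors 1 was called without knockout replicate 2 or 3 or wild-type replicate 1 or 2, and 0 without wild-type replicate 3. Removing 1 library also ended the edgeR call of Irf2 (knockout replicate 2 or 3 or wild-type replicate 1, 2 or 3, highest adjusted p = 0.12) and Maf (knockout replicate 1, 2 or 3 or wild-type replicate 1, 2 or 3, highest adjusted p = 0.107).

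Cytokine receptors split by chain. Of 22 genes 4 rose, Il2ra, Il2rb, Il10ra and Il12rb2, and 4 fell, Il2rg, Il6ra, Il6st and Il27ra (18.2% in each direction). Il6ra, the receptor for interleukin 6, was at 11.1, 10.1 and 10.4 CPM in wild type and 6.85, 7.17 and 5.98 CPM in knockout, and no knockout library reached a wild-type library (log2 fold change −0.67, SE 0.07, edgeR adjusted p = 0.000106). Il6st, the gp130 chain that it signals through, was at 101, 95.1 and 99.5 CPM in wild type and 73.7, 66.5 and 65.8 CPM in knockout (log2 fold change −0.52, SE 0.05, edgeR adjusted p = 8.97e-05). The common gamma chain Il2rg, shared by the receptors for interleukins 2, 7 and 15, fell by 0.27 on the log2 scale (edgeR adjusted p = 0.00296). Il2ra, the alpha chain that gives the interleukin 2 receptor its high affinity, was instead higher, at 969, 952 and 914 CPM in wild type and 1105, 1306 and 1142 CPM in knockout (log2 fold change 0.33, SE 0.08, edgeR adjusted p = 0.0205). Without knockout replicate 2, wild-type replicate 2 or wild-type replicate 3 it lost the call (edgeR adjusted p = 0.0668, 0.0588 and 0.0926). The count of higher receptors was then 0, 2 and 0. For the lower receptors it was 3 or 4 without any 1 stimulated library. Calls that edgeR did not make after 1 library was removed were those of Il2rb (knockout replicate 2 or 3 or wild-type replicate 1, 2 or 3, highest adjusted p = 0.141), Il10ra (knockout replicate 2 or wild-type replicate 3, highest adjusted p = 0.108), Il12rb2 (knockout replicate 2 or wild-type replicate 3, highest adjusted p = 0.0919) and Il27ra (knockout replicate 2 or wild-type replicate 3, highest adjusted p = 0.0643).

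Downstream of these receptors, 5 of 18 genes of STAT5 signalling and feedback rose (27.8%): Stat5a, Stat5b, Cish, Gfi1 and Pim3. Stat5a was at 239, 254 and 259.5 CPM in wild type and 293, 313 and 343 CPM in knockout (log2 fold change 0.33, SE 0.05, edgeR adjusted p = 0.00129) and Stat5b at 155, 168 and 163 CPM in wild type and 181, 195 and 188 CPM in knockout (log2 fold change 0.22, SE 0.05, edgeR adjusted p = 0.00939). Both had knockout libraries entirely above wild type. Bcl6, a repressor, fell (5.56% of the list). The 5 became 3 without knockout replicate 2 or wild-type replicate 1, and 2 without knockout replicate 3 or wild-type replicate 3. Bcl6 (log2 fold change −0.41, SE 0.12, edgeR adjusted p = 0.0405) kept its call when knockout replicate 2 was left out and lost it without any other stimulated library (highest edgeR adjusted p 0.153). Among 16 costimulatory receptors and ligands 4 rose (25%), Tnfsf11, Cd44, Tnfrsf4 and Tnfrsf18, and 3 fell (18.8%), Cd27, Slamf1 and Tnfsf14. Tnfsf11, which encodes RANKL, was at 56.8, 44.5 and 55.5 CPM in wild type and 72.6, 70.2 and 101 CPM in knockout (log2 fold change 0.64, SE 0.13, edgeR adjusted p = 0.00733). Cd27, a costimulatory receptor of naive and early activated T cells, was at 153, 153 and 164 CPM in wild type and 125, 106 and 116 CPM in knockout (log2 fold change −0.44, SE 0.05, edgeR adjusted p = 0.000217). Each of these pairs of groups was free of overlap. The count of higher members was 2 without knockout replicate 2 or any 1 wild-type library, and that of lower members was 1 without wild-type replicate 3. The edgeR call was lost after removal of 1 library for Cish (knockout replicate 3 or wild-type replicate 3, highest adjusted p = 0.0527), Gfi1 (knockout replicate 2 or 3 or wild-type replicate 1 or 3, highest adjusted p = 0.104), Pim3 (knockout replicate 2 or 3 or wild-type replicate 1, 2 or 3, highest adjusted p = 0.131), Cd44 (knockout replicate 3 or wild-type replicate 2, highest adjusted p = 0.087), Tnfrsf4 (knockout replicate 2 or wild-type replicate 1 or 3, highest adjusted p = 0.123), Tnfrsf18 (knockout replicate 2 or wild-type replicate 1, 2 or 3, highest adjusted p = 0.152), Slamf1 (wild-type replicate 3, adjusted p = 0.0825) and Tnfsf14 (knockout replicate 1 or 2 or wild-type replicate 2 or 3, highest adjusted p = 0.212).

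Ifng, the gene of the cytokine interferon gamma, was higher in the knockout. It was at 190.2, 259 and 282 CPM in the wild-type libraries and 463, 623 and 535 CPM in the knockout libraries (log2 fold change 1.15, SE 0.12, edgeR adjusted p = 0.000106). The groups did not overlap. Irf1, a transcription factor gene that interferons induce, lay lower in all knockout libraries, at 307, 306 and 275 CPM in wild type and 259, 246 and 237 CPM in knockout, and was not called (edgeR adjusted p = 0.0894).

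The guanylate-binding proteins (GBP) and immunity-related GTPases (IRG), which attack intracellular pathogens and are induced by interferons, were lower as a group. Of 16 tested 8 fell and none rose (50% against 4.22% of all genes), no estimate was positive, and for 14 all knockout libraries lay below all wild-type libraries (median log2 fold change −0.37). Gbp8 was at 73.8, 62.5 and 64.2 CPM in wild type and 39, 45.7 and 36.5 CPM in knockout (log2 fold change −0.73, SE 0.10, edgeR adjusted p = 0.000372). Gbp2 was at 1024, 849 and 827 CPM in wild type and 716, 670.5 and 572 CPM in knockout (log2 fold change −0.46, SE 0.10, edgeR adjusted p = 0.00922), and Gbp4 was at 408, 359 and 349 CPM in wild type and 276, 291 and 271 CPM in knockout (log2 fold change −0.41, SE 0.08, edgeR adjusted p = 0.00401). Gbp3, Gbp7, Gbp9, Tgtp1 and Tgtp2 made up the rest. These genes lie in clusters of similar copies, and Tgtp1 and Tgtp2 are near-identical neighbours, so reads could be shared between them and single members are less certain than the group. Wild-type replicate 1 was the highest library for all 16, and knockout replicate 3, the library with Y-linked reads, the lowest for 15. After removal of knockout replicate 3, and of all libraries that hold Y-linked reads, 3 were called. Gbp3, Gbp7, Gbp9, Tgtp1 and Tgtp2 were the 5 no longer called after removal of knockout replicate 3 (edgeR adjusted p = 0.0565, 0.0539, 0.0502, 0.102 and 0.121). Gbp2 kept it then but lost it without all 3 libraries with Y-linked reads (edgeR adjusted p = 0.05, just above the threshold before rounding). In the interferon response list, which has Ifi47 in common with the GTPases, 2 of 24 genes fell (8.33% against 4.22% of all genes), among them Ifit3, with a median of −0.09. Ifit3 was at 10.5, 7.95 and 7.73 CPM in wild type and 3.33, 4.97 and 3.66 CPM in knockout (log2 fold change −1.14, SE 0.32, edgeR adjusted p = 0.0344) and was no longer called after removal of any 1 stimulated library (highest edgeR adjusted p 0.117).

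Interferons act on these genes through an element called ISRE, whose core was searched on both strands as GAAA, any 2 bases and GAAA in the same windows. Of 10 tested GTPases with a window 9 held a match, among them all 5 called members that had one, against 3.32% of all tested genes with a window. The GAS element, named for interferon gamma activation, was searched as TTCNNNGAA (a palindrome) and was found in 6 of the 10, against 7.35% of all. As for HIF-1, this describes letters and not binding. The stretches around the ISRE core, in capitals, are given for the 5 called members, since they show how alike the elements of this group are. They are Gbp2 (chr3:142620579-142620638, plus strand), Gbp3 (chr3:142559974-142560039, plus strand), Gbp7 (chr3:142530258-142530317, plus strand), Tgtp1 (chr11:48992289-48992348, minus strand) and Tgtp2 (chr11:49064248-49064307, minus strand).
Gbp2: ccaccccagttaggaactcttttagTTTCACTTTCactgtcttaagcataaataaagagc
Gbp3: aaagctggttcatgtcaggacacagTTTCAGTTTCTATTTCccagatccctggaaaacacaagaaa
Gbp7: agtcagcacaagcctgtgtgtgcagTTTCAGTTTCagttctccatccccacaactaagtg
Tgtp1: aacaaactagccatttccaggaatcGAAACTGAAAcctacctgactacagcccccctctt
Tgtp2: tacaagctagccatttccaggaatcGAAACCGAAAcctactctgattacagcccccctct

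Components of the T cell receptor and its proximal kinases were lower. Of 18 genes 9 fell and none rose (50%; median −0.19), and for 12 all knockout libraries lay below all wild-type libraries. The CD3 chains, which couple the receptor to signalling, made up the clearest part. Cd3d (chromosome 9, 44981769 to 44987052) was at 203, 206 and 213 CPM in wild type and 159.8, 154 and 158 CPM in knockout, with a gap between the groups far wider than the spread within them (log2 fold change −0.40, SE 0.04, edgeR adjusted p = 0.000108). Its neighbours Cd3g (chromosome 9, 44969572 to 44980431) and Cd3e (chromosome 9, 44998735 to 45009663) were at 173, 163 and 167 CPM in wild type and 128, 116 and 115 CPM in knockout and at 173, 171 and 177 CPM in wild type and 149.8, 131 and 139.8 CPM in knockout. Neither overlapped between the groups (log2 fold changes −0.49 and −0.31, edgeR adjusted p = 0.00021 and 0.00118). In fresh wild-type cells Cd3d was at 429.6 ± 13.3 CPM (mean ± SD, n = 3), above its level in either stimulated group.

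Kinases and adaptors below the receptor differed by less. Lcp2, the adaptor SLP-76, was at 537, 512 and 583 CPM in wild type and 456, 416 and 462 CPM in knockout (log2 fold change −0.29, SE 0.05, edgeR adjusted p = 0.00345), and the kinase gene Fyn at 372, 376 and 376 CPM in wild type and 329, 329 and 333 CPM in knockout (log2 fold change −0.18, SE 0.04, edgeR adjusted p = 0.0101). Lck, the kinase bound to the CD8 coreceptor, was lower in all knockout libraries by a smaller margin, at 509, 518 and 530.4 CPM in wild type and 489.8, 455 and 473 CPM in knockout, and was not called (edgeR adjusted p = 0.0848). Ptprc, Prkcq and Cd8a were also lower. Cd8a was at 659, 563 and 556 CPM in wild type and 520.1, 481 and 429 CPM in knockout (log2 fold change −0.31, SE 0.07, edgeR adjusted p = 0.0155) and was no longer called after removal of knockout replicate 3 (edgeR adjusted p = 0.0632), while the other CD8 chain gene, Cd8b1, overlapped between the groups (log2 fold change −0.13, edgeR adjusted p = 0.408). Ptprc, the phosphatase CD45, lost it without wild-type replicate 3 (edgeR adjusted p = 0.0647). Not every T cell surface gene fell: Thy1 was at 494, 489 and 447 CPM in wild type and 558, 652 and 596 CPM in knockout (log2 fold change 0.34, SE 0.06, edgeR adjusted p = 0.00446).

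Members of the lists of MAPK phosphatases and related brakes and of inhibitory receptors were also lower or not called. Of 20 genes of MAPK phosphatases, Sprouty proteins and related brakes, 4 fell (20%), Dgka, Dgkz, Spry2 and Dusp6. Dgka and Dgkz encode kinases that remove diacylglycerol, a messenger of the receptor. Dgka was at 191, 185 and 180.2 CPM in wild type and 153, 156 and 148 CPM in knockout (log2 fold change −0.28, SE 0.05, edgeR adjusted p = 0.00287) and Dgkz at 280, 299 and 307 CPM in wild type and 259, 216 and 240.1 CPM in knockout (log2 fold change −0.31, SE 0.06, edgeR adjusted p = 0.00458). Without knockout replicate 2 or wild-type replicate 2 or 3 the count was 2. Among 15 inhibitory receptors and Tox genes 3 fell (20%), Cd160, Pdcd1lg2 and Pdcd1, and none rose. Cd160 was at 65.9, 62.3 and 69.7 CPM in wild type and 44.6, 40.4 and 39.8 CPM in knockout, with all knockout libraries well below wild type (log2 fold change −0.66, SE 0.07, edgeR adjusted p = 8.97e-05). Pdcd1, which encodes PD-1, was at 87.5, 98.5 and 115 CPM in wild type and 71.2, 58 and 73.9 CPM in knockout (log2 fold change −0.57, SE 0.13, edgeR adjusted p = 0.0157), a call lost with DESeq2 (adjusted p = 0.0824) and with edgeR without knockout replicate 2 or wild-type replicate 3 (edgeR adjusted p = 0.054 and 0.0919). With wild-type replicate 3 removed, 1 gene of the list was lower. Of 13 immediate early factors 4 fell (30.8%), Npas4, Egr3, Egr2 and Nfatc1, and Ier3 rose (7.69%). Nfatc1, the calcium-driven factor NFATc1, was at 236, 239 and 234 CPM in wild type and 210, 191 and 187 CPM in knockout (log2 fold change −0.27, SE 0.06, edgeR adjusted p = 0.00924). Egr3 was at 56, 66.6 and 69 CPM in wild type and 48.5, 38.6 and 49.1 CPM in knockout (log2 fold change −0.49, SE 0.10, edgeR adjusted p = 0.0083; 0.0563 with wild-type replicate 3 removed, where 2 of the factors were lower). Removing 1 library also ended the edgeR call of Spry2 (knockout replicate 2 or wild-type replicate 2 or 3, highest adjusted p = 0.167), Dusp6 (knockout replicate 1 or 2 or wild-type replicate 2 or 3, highest adjusted p = 0.225), Pdcd1lg2 (wild-type replicate 3, adjusted p = 0.103) and Egr2 (knockout replicate 1 or 2 or wild-type replicate 2 or 3, highest adjusted p = 0.232).

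Genes that FOXO factors maintain in naive cells were lower in the knockout. Of 20 FOXO targets 11 fell (55.0%) and 2 rose (10.0%), with a median of −0.25. Klf2, the factor that keeps naive T cells in circulation, was at 10.3, 8.24 and 10.7 CPM in wild type and 5.84, 5.23 and 6.07 CPM in knockout (log2 fold change −0.77, SE 0.13, edgeR adjusted p = 0.00268), and its mean in fresh wild-type cells was 415 ± 51.6 CPM. S1pr1, the receptor by which T cells leave lymphoid organs, was at 13.4, 10.4 and 10.6 CPM in wild type and 5.92, 8.11 and 6.71 CPM in knockout (log2 fold change −0.75, SE 0.13, edgeR adjusted p = 0.00349), against 534 ± 36.6 CPM in fresh wild type. For both, no knockout library reached the wild-type range. Pik3ip1, an inhibitor of PI3 kinase, was at 18.5, 17.1 and 17.4 CPM in wild type and 10.6, 12.6 and 9.47 CPM in knockout (log2 fold change −0.70, SE 0.10, edgeR adjusted p = 0.00086). Fam65b, an inhibitor of the GTPase RhoA, fell by 0.49 and Bcl2l11, the death factor BIM, by 0.52 on the log2 scale (edgeR adjusted p = 0.000217 and 0.00247). The members that rose were Ccng2 and Ccr7. The count of higher members was 0 without knockout replicate 2 or wild-type replicate 3 and 1 without knockout replicate 3 or wild-type replicate 2. The lower count stayed between 8 and 10 without any 1 stimulated library. Calls that edgeR did not make after 1 library was removed were those of Ccng2 (knockout replicate 2 or wild-type replicate 2 or 3, highest adjusted p = 0.105). A FOXO core, searched as GTAAACA on both strands in the 250 bases before the start, was rare in this list. It was found in 2 of 15 tested members with a window (13.3%) and in 1 of 9 called ones, Bcl2l11, against 2.55% of all tested genes with a window.

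Markers of naive and quiescent cells, a list that has the called genes Klf2, S1pr1, Tcf7 and Ccr7 in common with the FOXO targets, had 9 of 23 lower (39.1%) and 2 higher (8.7%, Actn1 and Ccr7). Actn1 was at 151, 129.6 and 127.5 CPM in wild type and 208.6, 187.6 and 191.6 CPM in knockout (log2 fold change 0.53, SE 0.06, edgeR adjusted p = 0.000207). The summed level of the list overlapped between the groups, at 3424, 3387 and 3375 CPM in wild type and 3359, 3654 and 3373 CPM in knockout. Tcf7, which encodes the stemness factor TCF-1, was at 307, 266 and 274 CPM in wild type and 250.2, 211 and 226 CPM in knockout (log2 fold change −0.30, SE 0.07, edgeR adjusted p = 0.0105). Without wild-type replicate 3 there were 5 lower members and 1 higher, and 1 higher without knockout replicate 2.

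Homing receptors and integrins changed in both directions, 5 of 22 higher and 5 lower (22.7% each). Ccr4, a chemokine receptor of skin and inflamed sites, was at 29.2, 26.2 and 19.5 CPM in wild type and 43.3, 54.4 and 47.8 CPM in knockout (log2 fold change 0.96, SE 0.13, edgeR adjusted p = 0.000411). Ccr2, a receptor of inflamed tissue, was near the detection limit in wild type, at 0.551, 1.3 and 1.12 CPM in wild type and 2.01, 2.72 and 2.88 CPM in knockout (log2 fold change 1.33, SE 0.26, edgeR adjusted p = 0.00526). The integrin beta chain Itgb1 was at 178, 182 and 172 CPM in wild type and 218, 226 and 227 CPM in knockout (log2 fold change 0.33, SE 0.05, edgeR adjusted p = 0.0012), whereas Itgb7, the beta chain of gut-homing integrins, was at 129.9, 136 and 135 CPM in wild type and 99.9, 82.2 and 86.8 CPM in knockout (log2 fold change −0.57, SE 0.06, edgeR adjusted p = 0.000108). Each of these 4 genes had groups that did not overlap. Ccr7 also rose, and Itgae, Itgal, Ccr9 and S1pr1 also fell. Itgae pairs with Itgb7, so both chains of the integrin that binds epithelial cadherin were lower. The edgeR call was lost after removal of 1 library for Itgal (wild-type replicate 3, adjusted p = 0.0677) and Ccr9 (knockout replicate 1 or 3 or wild-type replicate 1 or 2, highest adjusted p = 0.103).

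The partners of OTUB1 were mostly not called. Of 22 E2 enzymes, OTU deubiquitinases and related genes 3 rose (13.6%), Uchl5, Ube2e3 and Fam105b, and Otub1 alone fell. Uchl5, a deubiquitinase of the proteasome, was at 121, 110.4 and 115 CPM in wild type and 129.6, 138 and 145 CPM in knockout (log2 fold change 0.26, SE 0.05, edgeR adjusted p = 0.00792). Fam105b, the gene of the linear-chain deubiquitinase OTULIN, was at 67.4, 68.5 and 71.2 CPM in wild type and 78.8, 91 and 85.6 CPM in knockout (log2 fold change 0.30, SE 0.06, edgeR adjusted p = 0.00682). For both genes the groups did not overlap and differed by less than 1.5-fold. Ube2n, the E2 enzyme that OTUB1 is best known to bind, was at 179, 174 and 182 CPM in wild type and 183, 187 and 186 CPM in knockout and was not called (edgeR adjusted p = 0.54). Ube2e3 (log2 fold change 0.23, SE 0.07, edgeR adjusted p = 0.0478) was no longer called after removal of knockout replicate 1 or 2 or wild-type replicate 2 or 3 (highest edgeR adjusted p 0.228).

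Signalling lists that lie between the receptor and these programs had few called members. In the PI3K, AKT and mTOR list 2 of 28 rose (Pik3r5 and Pdk1) and 3 fell (Tsc1, Sesn1 and Sesn3). These were shares of 7.14% and 10.7%, against 5.08% and 4.22% of all genes. Pdk1 encodes a pyruvate dehydrogenase kinase and was counted among the HIF-1 targets as well. The PI3K-pathway kinase PDK1 is encoded by Pdpk1, a separate member of the list that was not called. Sesn1, an inhibitor of mTOR signalling, was at 31.7, 24 and 28.6 CPM in wild type and 22.3, 20.8 and 22.2 CPM in knockout (log2 fold change −0.37, SE 0.08, edgeR adjusted p = 0.0102). The counts were 1 and 1 without knockout replicate 1, knockout replicate 2 or wild-type replicate 3, and 1 higher without wild-type replicate 2. In the NF-kappaB list 3 of 24 rose (Nfkb1, Nfkb2 and the survival gene Bcl2l1) and 2 fell (Nfkbiz and Ltb), shares of 12.5% and 8.33%. Nfkb1, which encodes the p105 precursor, was at 881, 923 and 924 CPM in wild type and 1018, 1127 and 1154 CPM in knockout (log2 fold change 0.27, SE 0.05, edgeR adjusted p = 0.00564). Nfkbiz, an atypical inhibitor that also acts as a coactivator, was at 61.3, 67.7 and 65.2 CPM in wild type and 49.8, 52.7 and 50.8 CPM in knockout (log2 fold change −0.34, SE 0.06, edgeR adjusted p = 0.00388). Without knockout replicate 3, 1 was higher, and without wild-type replicate 1, 4 were lower. In the BCL2 family 2 of 17 rose, Bik and Bcl2l1, and 2 fell, Bcl2l11 and Mcl1 (11.8% in each direction). The count of higher members was 0 without knockout replicate 3 or wild-type replicate 2 or 3, and that of lower members was 1 without any 1 stimulated library other than knockout replicate 2. Removing 1 library also ended the edgeR call of Pdk1 (knockout replicate 1 or 2 or wild-type replicate 2 or 3, highest adjusted p = 0.192), Tsc1 (knockout replicate 1 or 2 or wild-type replicate 1 or 3, highest adjusted p = 0.12), Sesn3 (knockout replicate 1, 2 or 3 or wild-type replicate 1, 2 or 3, highest adjusted p = 0.164), Nfkb2 (knockout replicate 3, adjusted p = 0.0725), Bcl2l1 (knockout replicate 3 or wild-type replicate 2 or 3, highest adjusted p = 0.132), Bik (knockout replicate 2 or 3 or wild-type replicate 1, 2 or 3, highest adjusted p = 0.102) and Mcl1 (knockout replicate 1 or 3 or wild-type replicate 1, 2 or 3, highest adjusted p = 0.121).

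Genes named for the size of their fold change, outside the lists above, included several of low level. Ttc39c was at 2.75, 3.71 and 3.78 CPM in wild type and 5.34, 12 and 9.29 CPM in knockout (log2 fold change 1.36, SE 0.24, edgeR adjusted p = 0.00307). Jag2, a ligand of Notch receptors, was at 4.46, 5.06 and 3.24 CPM in wild type and 8.32, 14.8 and 8.26 CPM in knockout (log2 fold change 1.29, SE 0.23, edgeR adjusted p = 0.003), and Fam46a, a poly(A) polymerase family member, at 13.3, 11.7 and 9.85 CPM in wild type and 23.4, 38 and 20.3 CPM in knockout (log2 fold change 1.23, SE 0.18, edgeR adjusted p = 0.000758). All 3 had separate groups and were highest in knockout replicate 2. In the lower direction, Tlr1, a receptor for bacterial lipopeptides, was at 26.5, 16.6 and 20.8 CPM in wild type and 12.5, 11.9 and 11.4 CPM in knockout (log2 fold change −0.83, SE 0.12, edgeR adjusted p = 0.000885). Rab19, a GTPase of vesicle traffic, was at 4.06, 4.24 and 4.57 CPM in wild type and 2.75, 1.52 and 2.8 CPM in knockout (log2 fold change −0.84, SE 0.17, edgeR adjusted p = 0.00705), and Itih5, a matrix-associated protein gene, at 4.36, 5.15 and 4.86 CPM in wild type and 2.36, 3.14 and 2.71 CPM in knockout (log2 fold change −0.82, SE 0.18, edgeR adjusted p = 0.00954). None of these 3 overlapped between the groups.

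The effect of Otub1 loss was then set against that in fresh cells, which share no library with the stimulated ones. The 2 states differed in other ways. Otub1 itself was lowered less in fresh cells than after stimulation (log2 effect after stimulation minus that in fresh cells −1.47). Summed levels of 9 B cell markers were 143.8 to 206.6 CPM in fresh libraries and 21.56 to 30.72 CPM in stimulated ones. Sums of the dendritic cell markers were 1997 to 2616 CPM and 759 to 1165 CPM, and those of the myeloid markers 218.8 to 352.2 CPM and 38.24 to 75.11 CPM. These lists include Ccr7 and Ly6c2, which T cells also express. The part of these differences in the counts below was not tested. In fresh cells 125 genes were higher in the knockout (0.98%) and 28 lower (0.219%). Of the genes higher after stimulation 47 were also higher in fresh cells, 7.25% of the stimulated and 37.6% of the fresh calls. Among lower genes the overlap was 5, 0.928% of the stimulated and 17.9% of the fresh calls. The test of the difference between both effects (the interaction) called 288 genes (2.26%), of which 89 had a more positive effect after stimulation and 199 a more negative one. It called 6 of 18 T cell receptor genes, 6 of 16 GBP and IRG genes, 6 of 20 FOXO targets, 4 of 30 HIF-1 targets and 3 of 22 glycolysis genes. The fresh wild-type libraries differed among themselves in interferon-induced genes. Summed levels of GBP and IRG genes were 2373, 1816 and 1862 CPM in fresh wild type and 2254, 2351 and 2234 CPM in fresh knockout. Those of the interferon response list were 3977, 2520 and 2565 CPM and 3851, 3951 and 3761 CPM. The interaction count was 131 without stimulated wild-type replicate 3 and 135 without fresh wild-type replicate 2.

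Jag2, Ppp1r3b and Fam46a had the most positive interactions among the named genes for which it passed the test. Jag2 had a log2 fold change of 1.29 after stimulation and −0.65 in fresh cells (interaction 1.95, edgeR adjusted p = 0.00886). Fam46a had 1.23 and −0.40 (interaction 1.63, edgeR adjusted p = 0.00554). For Ppp1r3b the interaction was 1.65 (edgeR adjusted p = 0.0269). Cd160 was at 28.1 ± 0.719 CPM in fresh wild-type cells and 33.9 ± 1.77 CPM in fresh knockout cells, in the direction opposite to that after stimulation and not called (edgeR adjusted p = 0.0753; interaction −0.94, edgeR adjusted p = 0.00095). Ltb was likewise at 351 ± 15.6 CPM and 446 ± 46.2 CPM in fresh cells, not called (edgeR adjusted p = 0.0705; interaction −0.80, edgeR adjusted p = 0.00607). For Gbp8 the fresh log2 fold change was 0.11, not called, and the interaction was −0.84 (edgeR adjusted p = 0.00607). Cd3d and Cd3g had log2 fold changes of −0.05 and −0.09 in fresh cells, neither called, with interactions of −0.35 and −0.40 (edgeR adjusted p = 0.0102 and 0.0198).

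Tbx21 and Eomes went the other way round: they were higher in fresh knockout cells (log2 fold changes 1.28 and 0.64, edgeR adjusted p = 0.000302 and 0.0192) and were not called after stimulation. Their interactions were −1.10 and −0.67 (edgeR adjusted p = 0.0064 and 0.0484).

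**Figure D5:**
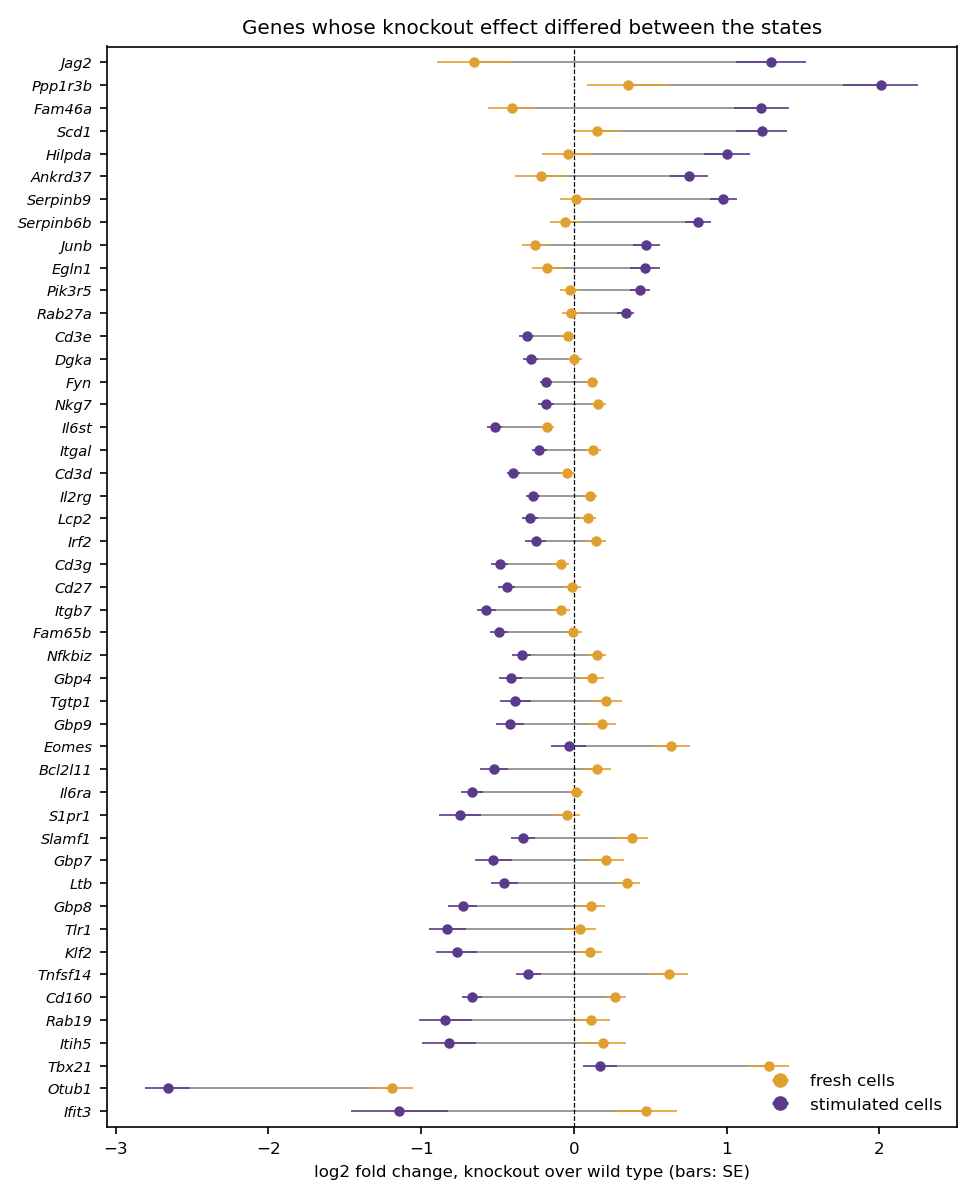
Log2 fold change of knockout over wild type (x axis; bars are the SE of the edgeR fit) in fresh (orange) and stimulated (purple) cells for 47 of the named genes (y axis) with an interaction at an edgeR adjusted p under 0.05. Jag2 lies at the top (−0.65 in fresh cells, 1.29 after stimulation), and at the bottom are Ifit3 (0.47 and −1.14) and Otub1 (−1.19 and −2.66).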

How the data were processed

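RNA sequencing counts of 12 mouse spleen libraries were used, 3 in each of 4 groups set by the source label. For each library the authors deposited raw counts of reads by gene. The submitters' processing notes name TopHat, TopHat2, HTSeq, DESeq2 and the build mm10, and versions, annotation and strand setting were not given in the sources used here. Summary lines of HTSeq (5.22% to 5.78% of a stimulated library's counts) were removed.

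The 12759 of 23420 genes that passed filterByExpr were fitted with edgeR 4.0.16 (R 4.3.3; TMM factors; quasi-likelihood test with 4 group means over all 12 libraries, 8 residual degrees of freedom). Tests were two-sided with Benjamini-Hochberg adjustment over all genes, and called means an adjusted p under 0.05. CPM are TMM-scaled, except in the marker sums given for the stimulated libraries alone. Alternatives used DESeq2 1.42.0, limma-voom (limma 3.58.1), other scaling and filters, and fewer libraries. The test was tried on simulated data in which 200 genes were changed.

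The members and lists were chosen with earlier results of these data known. Genes were named by size of change, by adjusted p within each list (up to 6 called and 3 uncalled members), by interaction and by level. Names outside this rule, such as Zbtb46, Thy1, Tbx21 and members spelled out of a short count, were chosen after their values were seen. Promoter windows come from RefSeq (GRCm38.p6), of which the 250 bases before the start were searched. Some genes of the lists are counted but not reported here by name.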

Additional observations from a re-analysis of the deposited data

Results flagged for a closer look

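The log2 effect of the knockout differed between stimulated and fresh cells, by the interaction test at an edgeR adjusted p under 0.05, for Actn1 and 47 other genes named in the text. Given as the effect after stimulation minus that in fresh cells, the more positive ones were Jag2 (1.95), Ppp1r3b (1.65), Fam46a (1.63), Scd1 (1.08), Hilpda (1.04), Ankrd37 (0.972), Serpinb9 (0.962), Serpinb6b (0.869), Junb (0.728), Egln1 (0.639), Actn1 (0.537), Pik3r5 (0.455) and Rab27a (0.354). The most negative were Ifit3 (−1.61), Otub1 (−1.47), Tbx21 (−1.1), Itih5 (−1.01), Rab19 (−0.954), Cd160 (−0.937), Tnfsf14 (−0.921), Klf2 (−0.872), Tlr1 (−0.868), Gbp8 (−0.842), Ltb (−0.802) and Gbp7 (−0.733). Next came Slamf1 (−0.713), S1pr1 (−0.7), Bcl2l11 (−0.677), Il6ra (−0.677), Eomes (−0.672), Gbp9 (−0.604), Tgtp1 (−0.593), Gbp4 (−0.531), Nfkbiz (−0.493), Fam65b (−0.488), Itgb7 (−0.486) and Cd27 (−0.43). Smaller negative differences were those of Cd3g (−0.4), Irf2 (−0.393), Lcp2 (−0.379), Il2rg (−0.373), Cd3d (−0.352), Itgal (−0.351), Il6st (−0.343), Nkg7 (−0.342), Fyn (−0.299), Dgka (−0.287) and Cd3e (−0.272). Of all genes tested 2.26% had such a difference. With 3 libraries in a group, no group was tested for a single library that stands apart.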

How the results depend on the processing

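The numbers of genes called higher and lower were 692 and 586 with DESeq2, 613 and 566 with upper-quartile factors, 750 and 523 with limma-voom, 721 and 531 with no filter and 619 and 550 with a stricter filter. With only the 6 stimulated libraries they were 449 and 358, and with the 3 libraries that hold Y-linked reads removed 507 and 359. Leaving out 1 stimulated library gave 258 to 796 higher and 256 to 511 lower genes. The interaction called 511 genes with DESeq2, 443 with no filter, 122 with those 3 libraries removed, and 131 to 349 without any 1 library. The cause of these shifts was not tested. Otub1 stayed lower in every setting run (log2 fold change −2.73 to −2.61 without 1 library). Of 198 named called genes, 85 lost the call without wild-type replicate 3, 49 without wild-type replicate 2, 47 with only the stimulated libraries, 42 without knockout replicate 2, 8 with DESeq2 and 10 with limma-voom. None of these named called genes changed direction in a setting that tested it. Changes of direction among uncalled genes were not counted. No paired analysis was possible because the labels give the groups no shared replicate numbers. Each group holds 3 libraries, so differences within the spread between them, and genes below the filter, could not be resolved.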

Other observations

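Within 1 Mb of Otub1 on chromosome 19 (RefSeq GRCm38.p6) 34 genes were tested, of which 6 were higher in the stimulated knockout and 0 lower (17.6%, against 5.08% and 4.22% of all genes). Within 3 Mb, 11 of 152 were higher and 7 lower (11.8%), among them Fads2 and Npas4, which are counted in the lists above. Within 5 Mb, 13 of 207 were higher and 15 lower (13.5%). These percentages count both directions together, and the matching count over all genes was 1187 called of 12759 tested. Whether position near the targeted gene bears on these calls was not tested.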
